A study of Mus musculus with 20 samples.

Results

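Open chromatin was compared between sorted epidermal cells from skin that was wounded and given UVB light and the same cells from skin given UVB alone. The members of the comparison are all regions of 2 peak lists, made from 4 of the 20 libraries of the series: 66541 regions in the wounded plus UVB list and 73340 in the UVB list. Overlapping peaks of a list were merged into a region, a region with no base of overlap in the other list was called gained (wounded plus UVB alone) or lost (UVB alone), and the rest were called shared.

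The assay was ATAC-seq, in which the Tn5 transposase cuts DNA that is not packed away in nucleosomes, so that a peak marks an accessible promoter or distal element. All mice were Lrig1CreER/Rosa-TdTomato, a genotype in which a fluorescent protein marks Lrig1-expressing cells and their descendants once Cre is active. Lrig1 marks the upper hair follicle, and the Lrig1 GL cells came from tail epidermis and were sorted for Sca1, the product of Ly6a. Each of the 10 groups had 2 libraries and 1 pooled list: wounded plus UVB, UVB, PRT4165 (an inhibitor of the H2A ubiquitin ligase activity of Polycomb), vehicle, the first wound at 1 week and at 8 weeks, the second wound at 1 week, homeostasis, and cells cultured from a distal memory region and from a control region. The sources used here do not give the UVB dose, the order and timing of wounding and UVB, or the animals' age and sex. With 1 list a group there is no spread between replicates, so no difference below was tested, and every interval is a Wilson 95% interval for counting error only.

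Wounding mobilises keratinocytes from the follicle to the surface epidermis, where they proliferate and rebuild the barrier. UVB damages DNA directly, which activates p53 and nucleotide excision repair, and both injuries induce AP-1 transcription factors (Fos and Jun dimers) and NF-kB, which bind enhancers of cytokine, growth factor and barrier genes. In keratinocytes most of this control is exerted at distal enhancers rather than at promoters.

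Sequences of promoters are shown for genes of these processes whose start lay under a region of only 1 of the lists. Tnf (an inflammatory cytokine), Ccl20 (a chemokine for Langerhans and T cells), Edn1 (endothelin 1, a keratinocyte signal to melanocytes) and Krt28 (a keratin of the inner root sheath) were covered in wounded plus UVB alone. Coverage here is that of the printed sequence. Within 1 kb of its start Edn1 also had a shared locus, with a signal of 5.75 in wounded plus UVB and 5.43 in UVB. Krt10 (the keratin of suprabasal cells), Sprr1b (a cornified envelope protein), Hpgds (a prostaglandin D synthase) and B3gnt5 (a glycosyltransferase of glycolipid synthesis) were covered in UVB alone. These genes were picked with their values in view. The sequences are from RefSeq for GRCm38.p6, 250 bases before to 50 after the start, and capitals mark matches on either strand to AP-1 (TGANTCA), the cAMP response element (TGACGTCA), the GC box (GGGCGG), the CCAAT box (CCAAT), the TATA box (TATAAA) and the ETS motif (CCGGAAG).
Tnf (chr17:35201958-35202257, minus strand): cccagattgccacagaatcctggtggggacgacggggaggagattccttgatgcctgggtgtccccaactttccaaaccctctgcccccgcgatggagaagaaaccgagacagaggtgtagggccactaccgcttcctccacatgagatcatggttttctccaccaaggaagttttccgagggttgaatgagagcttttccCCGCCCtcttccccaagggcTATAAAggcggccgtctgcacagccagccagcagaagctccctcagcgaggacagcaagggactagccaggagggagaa
Ccl20 (chr1:83116516-83116815, plus strand): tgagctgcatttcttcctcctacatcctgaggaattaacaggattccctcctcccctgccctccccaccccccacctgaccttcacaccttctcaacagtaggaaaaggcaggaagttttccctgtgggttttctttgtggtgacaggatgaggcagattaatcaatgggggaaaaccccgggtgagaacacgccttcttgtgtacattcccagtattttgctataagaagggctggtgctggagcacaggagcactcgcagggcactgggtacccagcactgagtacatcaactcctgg
Edn1 (chr13:42301226-42301525, plus strand): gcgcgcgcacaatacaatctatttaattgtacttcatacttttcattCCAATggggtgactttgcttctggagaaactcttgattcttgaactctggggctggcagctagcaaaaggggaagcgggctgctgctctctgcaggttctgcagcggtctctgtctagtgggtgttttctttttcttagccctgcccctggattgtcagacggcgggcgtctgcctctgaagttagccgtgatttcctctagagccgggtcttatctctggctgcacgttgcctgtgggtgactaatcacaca
Krt28 (chr11:99374854-99375153, minus strand): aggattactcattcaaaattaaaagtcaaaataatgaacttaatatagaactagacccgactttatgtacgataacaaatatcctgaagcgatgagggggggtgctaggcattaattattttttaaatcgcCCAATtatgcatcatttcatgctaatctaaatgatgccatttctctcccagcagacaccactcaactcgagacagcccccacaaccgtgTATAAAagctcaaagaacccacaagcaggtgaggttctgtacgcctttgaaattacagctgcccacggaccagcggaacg
Krt10 (chr11:99389315-99389614, minus strand): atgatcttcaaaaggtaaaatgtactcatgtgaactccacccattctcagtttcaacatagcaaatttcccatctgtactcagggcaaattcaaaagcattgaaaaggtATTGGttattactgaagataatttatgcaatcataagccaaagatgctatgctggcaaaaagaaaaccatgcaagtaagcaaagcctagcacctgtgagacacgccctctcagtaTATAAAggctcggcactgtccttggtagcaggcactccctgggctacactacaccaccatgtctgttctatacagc
Sprr1b (chr3:92438730-92439029, minus strand): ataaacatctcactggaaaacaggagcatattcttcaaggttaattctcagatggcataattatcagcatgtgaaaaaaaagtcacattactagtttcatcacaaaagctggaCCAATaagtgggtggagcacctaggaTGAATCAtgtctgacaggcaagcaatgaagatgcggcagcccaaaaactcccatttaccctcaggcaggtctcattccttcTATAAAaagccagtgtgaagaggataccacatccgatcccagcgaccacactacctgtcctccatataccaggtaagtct
Hpgds (chr6:65144681-65144980, minus strand): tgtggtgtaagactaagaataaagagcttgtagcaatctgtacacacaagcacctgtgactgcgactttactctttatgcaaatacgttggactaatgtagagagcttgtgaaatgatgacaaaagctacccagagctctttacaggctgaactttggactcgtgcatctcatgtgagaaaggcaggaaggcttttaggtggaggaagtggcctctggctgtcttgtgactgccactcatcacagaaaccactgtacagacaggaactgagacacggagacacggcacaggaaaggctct
B3gnt5 (chr16:19759984-19760283, plus strand): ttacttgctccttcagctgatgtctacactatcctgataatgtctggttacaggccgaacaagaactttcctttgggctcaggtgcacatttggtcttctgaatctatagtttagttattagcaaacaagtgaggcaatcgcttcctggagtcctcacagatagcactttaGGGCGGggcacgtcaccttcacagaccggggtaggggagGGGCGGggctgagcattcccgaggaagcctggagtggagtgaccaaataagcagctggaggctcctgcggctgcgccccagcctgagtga

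Among the gained promoters, that of Tnf held a GC box and a TATA box, that of Krt28 a CCAAT box and a TATA box, that of Edn1 a CCAAT box, and that of Ccl20 none of the 6 motifs. In the lost set, Sprr1b held an AP-1 match, a CCAAT box and a TATA box, Krt10 a CCAAT box and a TATA box, B3gnt5 2 GC boxes, and Hpgds none. The signal, the authors' enrichment value of a peak, was 7.05 at Tnf, 7.26 at Ccl20, 7.40 at Edn1 and 12.6 at Krt28 in the wounded plus UVB list. It was 4.02 at Krt10, 5.86 at Sprr1b, 8.74 at Hpgds and 14.9 at B3gnt5 in the UVB list. The Tnf region was also present in 1 of the other 8 lists (cultured control), the Edn1 region in 5, among them both lists from 1 week after wounding, and the Ccl20 region in 7. The Krt10 region was otherwise held by the vehicle and PRT4165 lists alone, and the Sprr1b region by both cultured lists alone. Most of these are weak peaks: the Tnf, Ccl20 and Edn1 regions ranked at percentile 19.5, 21.0 and 22.1 of the wounded plus UVB list and the Krt10 and Sprr1b regions at 4.30 and 15.8 of the UVB list.

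Over all 21238 promoters of the table, 122 promoters of 118 genes were covered by gained regions alone and 462 promoters of 423 genes by lost regions alone, while 11402 were under a shared region and 9252 under none. Promoters that differed were less rich in CpG than shared ones: the median observed over expected CpG ratio was 0.54 for gained, 0.62 for lost and 0.79 for shared promoters, and 0.22 for promoters with no region. A GC box was found in 61 of 122 gained promoters (41.3 to 58.7%), 58.7% of lost (54.1 to 63.1) and 68.9% of shared ones, against 46.2% of all promoters. The ETS motif was found in 4.10% of gained (1.76 to 9.24), 5.63% of lost (3.87 to 8.12) and 19.01% of shared promoters, against 11.6% of all. AP-1 matches were found in 8.20% of gained (4.51 to 14.4), 7.58% of lost (5.50 to 10.4) and 4.99% of shared promoters, against 6.99% of all. The intervals of the gained and lost promoters overlap for each of these motifs.

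The labelled cell type was checked against its markers. The starts of Lrig1 and Ly6a lay under a shared region, with a signal of 15.1 in wounded plus UVB and 13.9 in UVB for Lrig1. For Ly6a the signal was 5.67 in wounded plus UVB and 4.67 in UVB. All 6 genes of the upper follicle and sorted lineage list had an open start in both lists. Of 15 keratinocyte markers 12 had one in wounded plus UVB and 13 in UVB. The basal keratin gene Krt14 and the epithelial regulator Trp63 had no region at their starts in either list, but had 8 and 22 shared regions elsewhere. Melanocyte markers Tyr, Kit, Mc1r and Ednrb had no region in either list, and nor did the T cell markers Cd3d and Cd3g or the Langerhans marker Cd207. Other members did: 7 of 11 melanocyte, 9 of 11 T cell and 7 of 12 Langerhans and myeloid markers had a region. Their shared regions numbered 22, 38 and 17, so the markers do not show that these cell types were absent. The Y-linked starts of Ddx3y, Uty and Eif2s3y carried signals of 25, 23.3 and 23.3 in the wounded plus UVB list and no region in the UVB list. The Y-linked regions were also present in both lists from 1 week after wounding and in both cultured lists and absent from the homeostasis, 8-week, vehicle and PRT4165 lists, and since the labels give no sex, a difference of sex between groups cannot be told apart from that of treatment. Y regions numbered 8 of the gained and 1 of the lost regions, and counts on the 19 autosomes alone are given where they matter.

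Between the wounded plus UVB and UVB lists there were fewer gained than lost regions, most of them below the median signal of their own list and away from promoters. In the wounded plus UVB list 6661 regions, 10.01%, were gained (9.78 to 10.2), and in the UVB list 14169 regions, 19.3%, were lost (19.04 to 19.6). Median signal was 7.79 for gained and 6.87 for lost regions, against 11.5 and 10.9 for shared regions in the wounded plus UVB and UVB lists. Gained regions had a median width of 398 bp and lost regions 406 bp, against 586 and 645 bp for shared ones. The excess of lost regions depended on the length of the lists: with the UVB list cut to its 66541 strongest regions, 10443 were gained and 11238 lost.

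**Figure D1:**
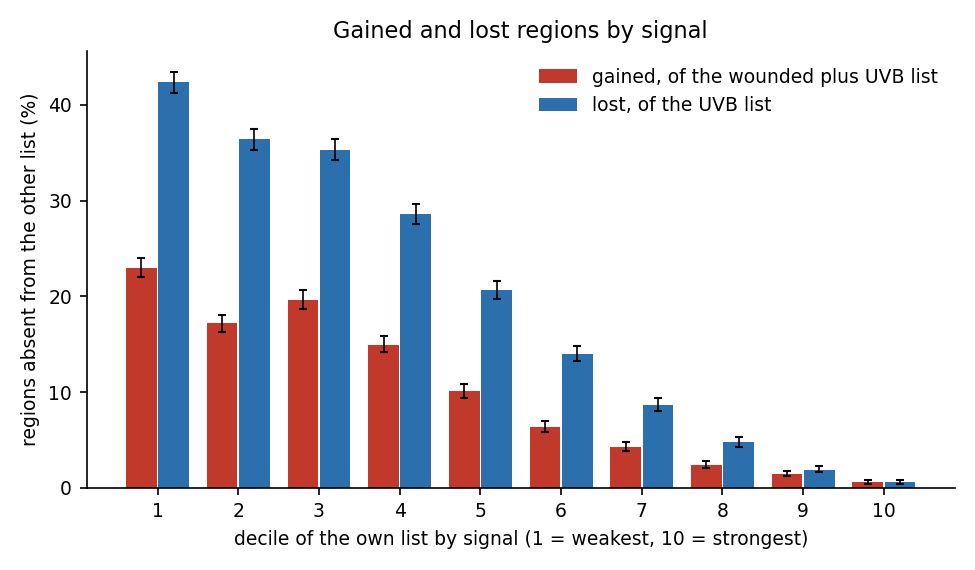
Share of regions absent from the other list, in percent, by decile of the own list ordered by signal, for gained regions (red, of the wounded plus UVB list) and lost regions (blue, of the UVB list). Bars are shares and whiskers Wilson 95% intervals: in the weakest decile 23.01% were gained and 42.4% lost, and in the strongest 0.586% were gained and 0.586% lost.

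The strongest decile of each list was almost wholly shared, with 39 of 6654 regions gained and 43 of 7334 lost. Between these ends the share lost was above the share gained in each of the first 9 deciles. Only 15.1% of gained and 15.6% of lost regions lay above the median signal of their own list, 1008 and 2206 regions in number.

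Of gained regions 4.94% (4.44 to 5.49) and of lost regions 6.92% (6.52 to 7.35) had their summit within 1 kb of a gene start, against 21.8% of shared regions in the wounded plus UVB list and 21.6% in the UVB list. With lists of equal length the order of the gained and lost shares turned, to 9.20% and 5.53%. Gene bodies held 53.3% of gained, 52.1% of lost and 52.4% of shared regions, so the distribution inside and outside genes was much alike. A distance of over 100 kb from any protein-coding gene was seen for 10.1% of gained and 9.67% of lost regions, against 7.30% of shared regions. Across autosomes the gained share of changed regions ran between 27.7% on chromosome 14 and 38.8% on chromosome 11.

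The 5 strongest gained regions all lay more than 1 kb from a gene start. One was 10.4 kb from Lce3e, a late cornified envelope gene (chr3:92978524-92978841, signal 26.7), 1 lay 33.3 kb from the X-linked ubiquitin ligase Pja1 (chrX:99504104-99504820, 26.5), and 1 was within Slc4a7, a bicarbonate transporter (chr14:14776024-14776372, 25.96). The others were within the RNA helicase Dhx8 (chr11:101756336-101757039, 25.5) and in a gene desert (chr5:80317872-80318522, 25.02). The Slc4a7 region was in none of the other 8 lists, while the Dhx8 and desert regions were otherwise found 1 week after the second wound alone. The Lce3e region was in 7 of the other lists and so was not restricted to wounded plus UVB.

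Of the 5 strongest lost regions, the first lay within Tubgcp4, a component of the microtubule-nucleating ring (chr2:121183326-121183881, signal 23.1), a pair lay in a desert on the side of Atp10b (chr11:42793265-42793758, 22.97, and chr11:42873804-42874398, 22.1), 1 was 9.49 kb from Hepacam2 (chr6:3447427-3447781, 22.6) and 1 was 38.7 kb from Adgb (chr10:10296815-10297283, 21.9). Each of the 5 was present in the PRT4165 list, and 4 of the 5 were also in the vehicle list. Of all lost regions these lists held 47.8% and 51.4%, in that order.

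Gained and lost regions differed in which other lists held them. The list from 1 week after the first wound held 17.1% of gained regions (16.2 to 18.04) and 16.3% of lost regions (15.7 to 16.9), and the list from 1 week after the second wound held 13.3% (12.5 to 14.1) and 8.97% (8.51 to 9.45). In every other list the share of lost regions was higher: vehicle held 36.0% of gained and 51.4% of lost regions, homeostasis 2.64% and 5.44%, and the 8-week list 2.39% and 5.10%. Shared regions were held far more often, at 91.6% by vehicle and 75.2% at 1 week after the first wound. No other list held 2550 gained regions, 38.3%, and 3674 lost regions, 25.9%, against 2.64% of shared regions.

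**Figure D2:**
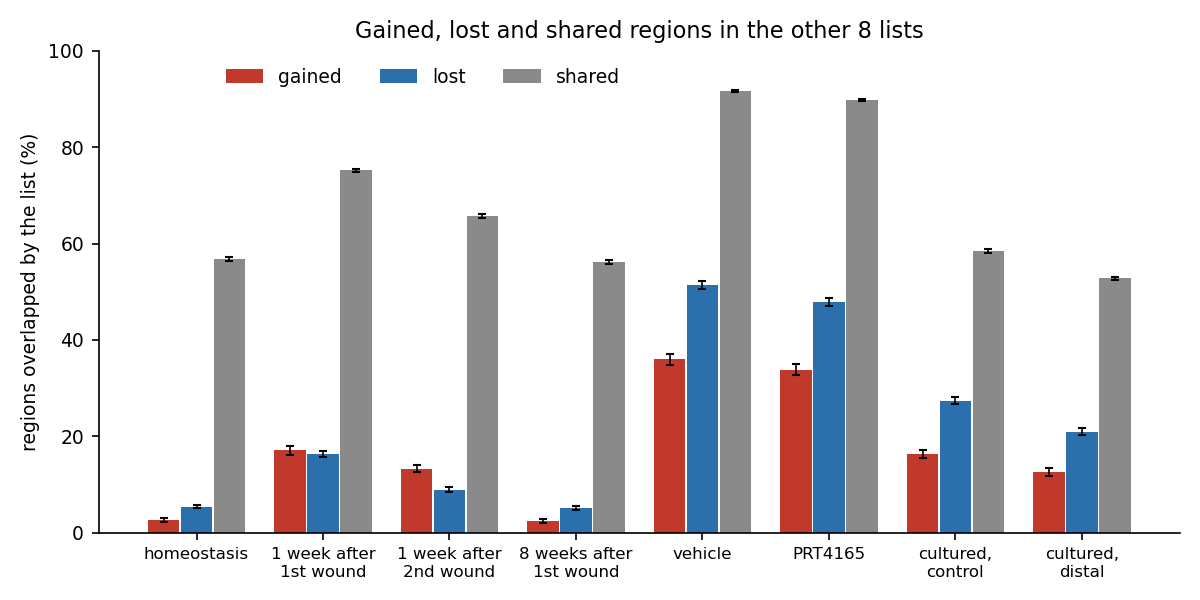
Share of gained (red), lost (blue) and shared (grey, regions of the wounded plus UVB list) regions that overlap a region of each of the other 8 lists, in percent, with Wilson 95% intervals. Gained bars stand above lost bars in the lists from 1 week after the first wound (17.1% and 16.3%) and after the second wound (13.3% and 8.97%), and below them in the other 6.

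The wound time course uses libraries outside this comparison, so it gives a separate view of the same positions. Among gained regions, 1039 were in the list from 1 week after the first wound and not in homeostasis, and 75 the other way round. For lost regions the counts were 1878 and 341, and for shared regions 12619 and 1598. With the second wound they were 814 and 104 for gained, 1032 and 532 for lost, and 9126 and 3774 for shared regions. Relative to homeostasis the 8-week list gave 117 and 134 for gained regions and 529 and 578 for lost ones. The wound lists differ from the homeostasis list in length, at 49078 and 42200 regions against 35195, and in the Y-linked regions above, and the part of either in these counts was not tested.

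A smaller set was in both lists from 1 week after wounding and in neither the homeostasis nor the 8-week list: 394 gained regions (5.92%, 5.37 to 6.51), 381 lost regions (2.69%, 2.44 to 2.97) and 3782 shared regions (6.32%). On autosomes alone the gained share was 5.90% and the lost share 2.74%. With regions of the vehicle list also set aside, 183 gained (2.75%, 2.38 to 3.17), 58 lost (0.409%, 0.317 to 0.529) and 273 shared regions (0.456%) were left. In the lists that define the 183 gained regions, the Y-linked starts of Ddx3y, Uty and Eif2s3y had the same pattern of presence and absence. The PRT4165 list and both cultured lists are not part of that rule, and the 183 regions need not follow the Y-linked starts there. For this set wounding and a difference of sex between groups cannot be told apart, and autosomal shares do not separate them. Among the strongest autosomal regions of the 183 gained were those within Maml2, a Notch coactivator (chr9:13511033-13511344, signal 22.8), Pid1 (chr1:84309945-84310864, 21.8), Keg1 (chr19:12708275-12709001, 21.7) and Slc28a3, a nucleoside transporter (chr13:58601072-58601637, 21.1). The strongest of the lost ones, in a desert at chr2:48372745-48373569, reached 15.7, followed by a region near Fhit (13.6) and 1 within Crtac1 (13.1).

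Within shared loci the rank of the signal was compared, since signal itself is scaled by list. The percentile of a locus in the wounded plus UVB list followed that in the UVB list closely, with a Spearman correlation of 0.930 across 58859 loci, which share their genome positions and are not replicates. A locus was called moved when its percentile differed by at least 20 points. In wounded plus UVB 2270 loci, 3.86%, ranked higher, and 2030 loci, 3.45%, ranked lower, while 74.2% lay within 10 points. For scale, the same Spearman correlation was 0.942 between PRT4165 and vehicle and 0.911 between UVB and vehicle.

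**Figure D3:**
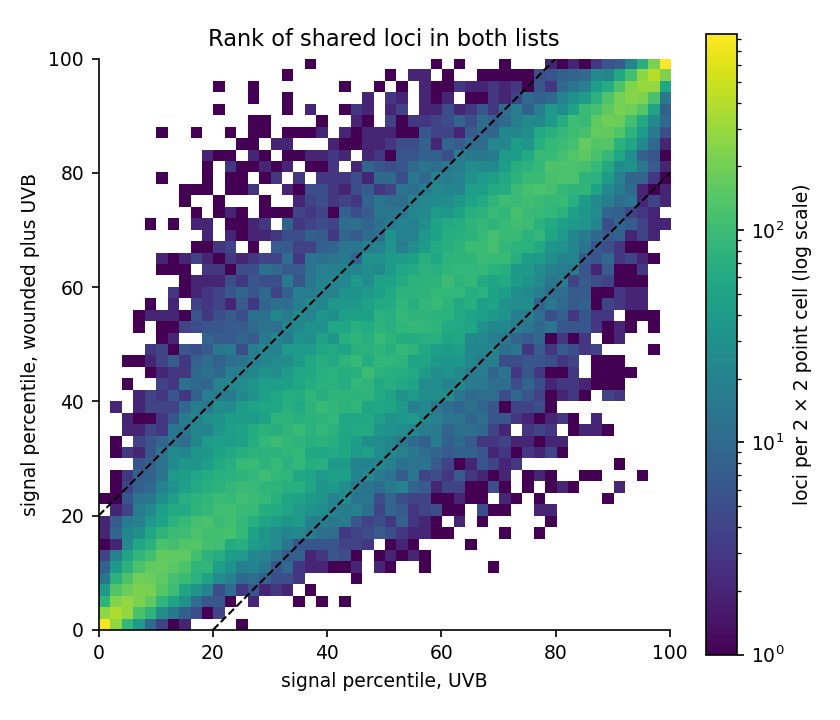
Signal percentile of the 58859 shared loci in the wounded plus UVB list (vertical axis) and in the UVB list (horizontal axis), counted in cells of 2 by 2 points on a logarithmic colour scale. Dashed lines mark a difference of 20 points, with 2270 loci on or above the upper line and 2030 on or below the lower one.

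Moved loci were mainly distal: 5.02% of those that ranked higher and 8.28% of those that ranked lower were within 1 kb of a gene start, against 21.6% of all shared loci. The largest rise was a locus within Kpna3, an importin of nuclear import (chr14:61410015-61410592), with a signal of 24.1 in wounded plus UVB and 7.16 in UVB. Its percentile was 95.9 in wounded plus UVB and 20.7 in UVB. This locus had a signal of 10.04 at 1 week after the first wound, 11.1 in vehicle and 17.1 in PRT4165. A locus within the X-linked Frmpd4 had a signal of 19.2 in wounded plus UVB and 5.90 in UVB, and a desert locus on chromosome 14 had 21.1 in wounded plus UVB and 7.16 in UVB. A locus within Ext2, a heparan sulfate polymerase, had 19.2 in wounded plus UVB and 6.64 in UVB, and 1 within Arhgef10l had 23.5 in wounded plus UVB and 8.01 in UVB. None of these 5 was present in the homeostasis list.

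The largest fall lay 22.5 kb from Trdn, a gene of the muscle calcium release complex (chr10:33060663-33061167), with a signal of 8.16 in wounded plus UVB and 19.8 in UVB. It was followed by a desert locus on the side of the desmocollin gene Dsc3, with 8.65 in wounded plus UVB and 21.7 in UVB, and by a locus beside the kinase Stk10, with 8.09 in wounded plus UVB and 19.2 in UVB. At a locus on the side of Trps1, a zinc finger regulator of hair follicle development, the signal was 8.33 in wounded plus UVB and 19.5 in UVB. At the start of Gsdmc, a gasdermin expressed in epithelia (chr15:63808350-63809051), it was 8.82 in wounded plus UVB and 19.3 in UVB. At the Gsdmc start the signal was 12.6 in PRT4165 and 10.5 in vehicle, between those of the wounded plus UVB and UVB lists.

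Loci that ranked higher in wounded plus UVB also tended to rank higher in the lists from 1 week after wounding than in homeostasis. Of those present in both lists compared, 256 of 380 (67.4%, 62.5 to 71.9) ranked higher 1 week after the first wound, and 232 of 333 (69.7%, 64.5 to 74.4) 1 week after the second wound. For loci that ranked lower, the shares were 317 of 592 (53.5%, 49.5 to 57.5) and 232 of 466 (49.8%, 45.3 to 54.3), and for all shared loci 47.2% and 48.6%. At 8 weeks the order was the other way, with 125 of 218 (57.3%, 50.7 to 63.7) for loci that ranked higher and 268 of 442 (60.6%, 56.0 to 65.1) for those that ranked lower. On autosomes the shares for loci that ranked higher were 67.1% and 69.9%. These loci are a selected part, since only 437 of 2270 that ranked higher were in the homeostasis list at all.

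**Figure D4:**
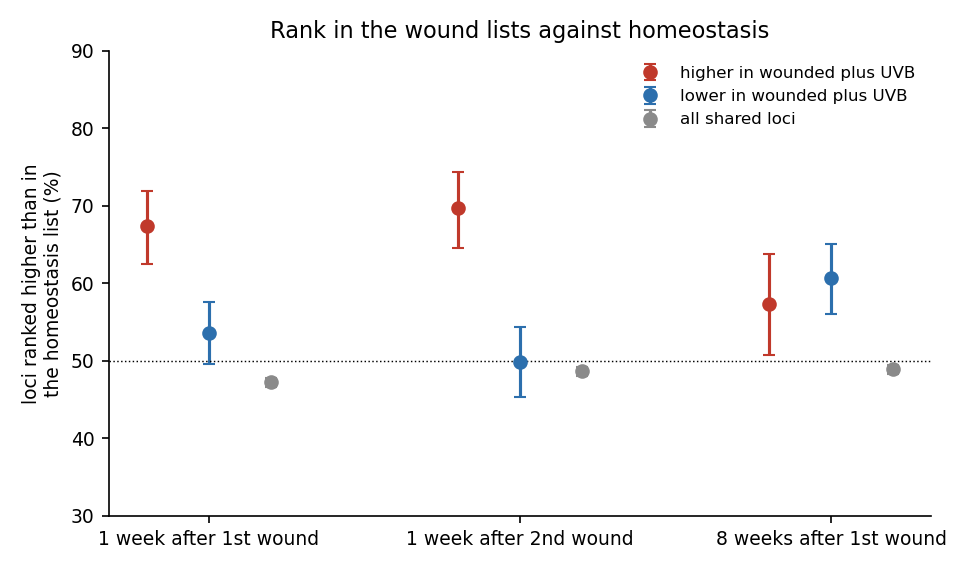
Share of loci that ranked higher in each wound list than in the homeostasis list, in percent (axis cut to 30 to 90), for loci that ranked higher in wounded plus UVB (red), lower (blue) and all shared loci (grey). Points are shares and whiskers Wilson 95% intervals: red points stand at 67.4% and 69.7% at 1 week and at 57.3% at 8 weeks, where the blue point is 60.6%.

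Genes were linked to regions by position, within the gene or else to the nearest protein-coding gene within 100 kb, which does not show that a region controls the gene. Of 15891 genes with a region, 2084 had more gained than lost regions, 5760 had more lost, and 8047 had as many of each. Among gained and lost regions assigned to genes, 31.9% were gained, and this share is the background for the genes and lists below.

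The genes with the largest excess of gained over lost regions, 8 in number, were led by Foxp1 and Auts2. Foxp1, a forkhead repressor known to keep hair follicle stem cells of mice quiescent, had 13 gained, 5 lost and 33 shared regions, and its start had a signal of 14.4 in wounded plus UVB and 10.3 in UVB, 21.4 points higher in rank. The gained Foxp1 regions had signals from 4.92 to 13.9. None of the 13 was in a list from 1 week after wounding, nor any of the 8 at Mcc, against 1540 of all 6661 gained regions, 23.1%. Such lists held 3 of 13 at Auts2, 3 of 9 at Tgfbr3, 4 of 9 at Kalrn, 2 of 6 at Adgrl3 and 2 of 7 at Ttll11. Regions of 1 gene are not independent, and these genes were picked for their gained regions, so no interval is given. Auts2, a Polycomb-associated factor, had 13 gained and 6 lost regions, Tgfbr3, the TGF-beta coreceptor betaglycan, 9 and 2, and Kalrn 9 and 4. The remaining genes of this set were Mcc with 8 gained and 2 lost, Adgrl3 with 6 and 1, and Ttll11, a tubulin polyglutamylase, with 7 and 2 regions. Among the strongest 50% of each list the balance of gained minus lost regions turned for 4 of the 8 genes, to -1 at Foxp1, -1 at Auts2, -3 at Mcc and -1 at Adgrl3, and it was 0 at Tgfbr3.

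Tox3, an HMG-box factor, differed from these in where its regions occurred. It had 5 gained, no lost and 2 shared regions. Of all gained regions 23.1% were in a list from 1 week after wounding, 36.0% in vehicle and 2.64% in homeostasis. All 5 gained Tox3 regions were in a list from 1 week after wounding, and none was in homeostasis or vehicle. The strongest lay within the gene at chr8:90276705-90277399, with a signal of 18.9, and the next at chr8:90151407-90152091, with 17.1, and both of these were found after the first and after the second wound.

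Genes with more lost regions included the phosphodiesterases of cyclic nucleotide signalling Pde4d, with 1 gained and 15 lost regions, and Pde10a, with none and 10. Arl15, a small GTPase of the Arf family, had none gained and 13 lost. Arid1b, a subunit of the BAF chromatin remodeller, Snd1, a nuclease of RNA regulation, and Rgs3, a regulator of G protein signalling, each had none gained and 11 lost. The actin regulators Fmn1 and Palld had none gained and 10 lost, and 2 gained and 12 lost, in that order. Lost regions of Arl15 had signals from 4.45 to 10.4. The vehicle list held 9 of its 13 lost regions, 9 of 11 at Snd1 and 8 of 10 at Pde10a. It held 6 of 11 at Arid1b, 6 of 12 at Palld and 7 of 15 at Pde4d. At Fmn1 it held 4 of 10 and at Rgs3 3 of 11, against 51.4% of all lost regions.

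Signalling and stress lists were compared with the background of 31.9%. Of 24 gene lists 3 had an interval above it (AP-1, and by less than 1 point EGFR and TGF-beta and BMP) and none below. These calls depended on the length of the lists compared: with lists of equal length 10 of 24 intervals lay above the all-gene share, then 49.02%, and among the strongest 50% of each list none did. AP-1 and immediate early factors had 26 gained and 21 lost regions, a gained share of 55.3% (41.2 to 68.6), and 10 of the 21 members had more gained than lost, while 4 had fewer. Egr2, Jund and Myc each had 2 gained regions and none lost, and Fos had 3 and 2. Jun and Klf4 went the other way, with 1 gained and 4 lost each. Of the 26 gained regions 8 (30.8%, 16.5 to 49.99) were in a list from 1 week after wounding, and 3 of the 21 lost ones (14.3%, 4.98 to 34.6), intervals that include the 23.1% of all gained and 20.4% of all lost regions. The gained share was 84.2% with lists of equal length, and 27.3% among the strongest 50% of each list, where all genes had 32.7%. Its shared loci did not rank higher in wounded plus UVB, with a median difference of -0.40 points, none moved up and 3 moved down.

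**Figure D5:**
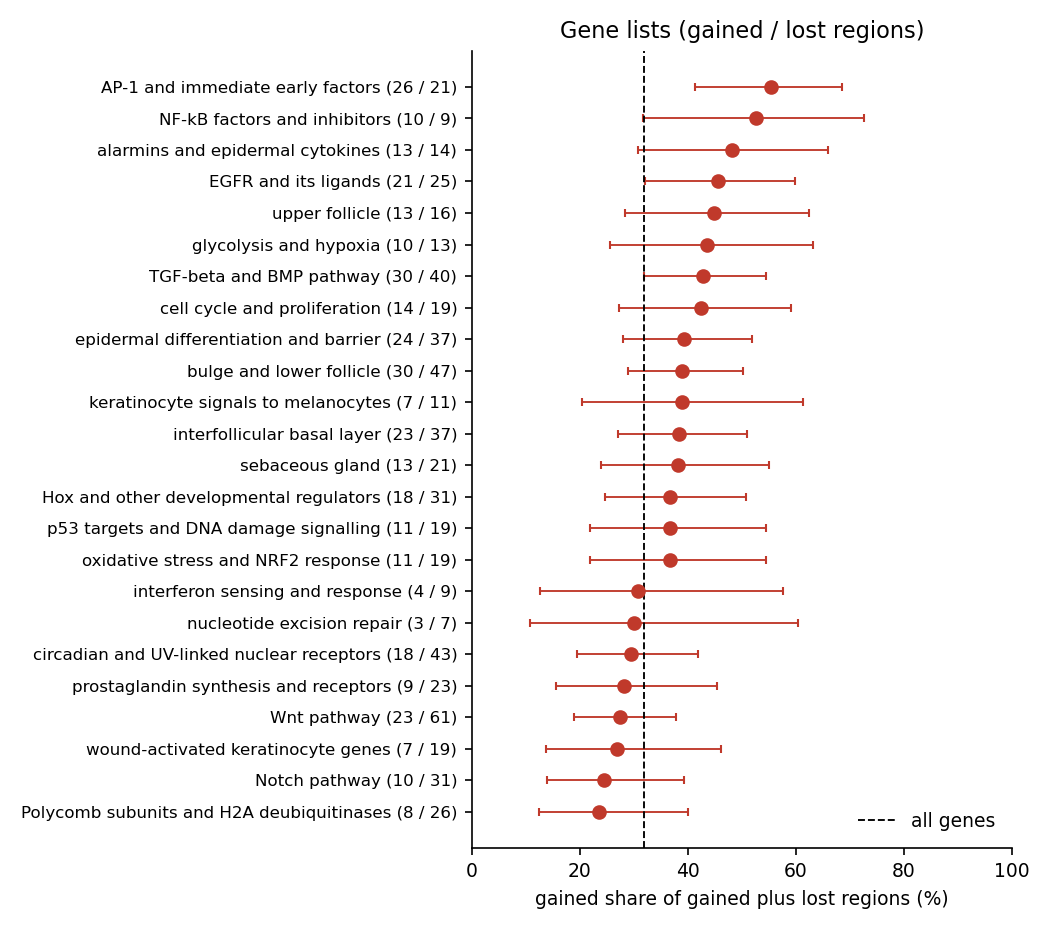
Gained share of gained plus lost regions, in percent, for 24 gene lists, with the numbers of gained and lost regions in brackets. Points are shares, whiskers Wilson 95% intervals, and the dashed line is the share over all genes, 31.9%: AP-1 and immediate early factors stand highest at 55.3%, and Polycomb subunits and H2A deubiquitinases lowest at 23.5%.

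Among cytokine and growth factor genes the gained share was also above the background, and the intervals of the NF-kB and alarmin lists include it. NF-kB factors and inhibitors had 10 gained and 9 lost regions (52.6%, 31.7 to 72.7). Nfkb1 had 4 gained and 2 lost, and its inhibitor Nfkbia had none gained and 3 lost. Alarmins and epidermal cytokines had 13 and 14 (48.1%, 30.7 to 66.0), with 2 gained regions at Tnf, 1 at its start and 1 at 1.45 kb inside the gene. EGFR and its ligands had 21 and 25 (45.7%, 32.2 to 59.8), in which the ligand Areg had 4 gained and 1 lost and the receptor Egfr 2 gained and 6 lost. All 4 gained Areg regions lay 27.1 to 81.8 kb from its start. TGF-beta and BMP genes had 30 and 40 (42.9%, 31.9 to 54.5), led by Tgfbr3, while Bmp4 had none gained and 5 lost and the inhibitor Fst none and 3. For this list too the share fell below that of all genes among the strongest 50% of regions, at 15.8% and 32.7%.

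The largest shift at a start in each of these 5 lists was towards a lower rank in wounded plus UVB. This did not set them apart, since most other gene lists had the same direction, among them Wnt, Notch and p53. It was towards a higher rank in the prostaglandin, cell cycle, glycolysis, differentiation, upper follicle, and bulge and lower follicle lists. Of all shared loci within 1 kb of a gene start, 114 ranked higher by at least 20 points and 168 ranked lower. Il18, a cytokine of the interleukin 1 family, had a signal of 9.31 in wounded plus UVB and 12.9 in UVB at its start, a shift of -30.2 points. The start of Nfkbiz, an atypical NF-kB regulator, had 12.7 in wounded plus UVB and 15.7 in UVB, a shift of -20.8 points, and that of Erbb2, a receptor partner of Egfr, 13.8 in wounded plus UVB and 17.5 in UVB, a shift of -21.6 points. At the start of Nr4a1, an immediate early nuclear receptor, it was 15.8 in wounded plus UVB and 17.9 in UVB, a shift of -12.7 points. At the start of Smad3, a transducer of TGF-beta signals, it was 6.97 in wounded plus UVB and 8.70 in UVB, a shift of -16.5 points.

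The intervals of both DNA damage lists include the background. The p53 and damage signalling list had 11 gained and 19 lost regions (36.7%, 21.9 to 54.5), and nucleotide excision repair 3 and 7 (30%, 10.8 to 60.3). With lists of equal length the p53 list had 75% gained (58.9 to 86.2), against 49.02% for all genes. Zmat3, an RNA-binding target of p53, had 4 gained and 1 lost region, Perp, a desmosomal target, none and 3, and Gadd45a 1 and 3. The repair helicase gene Ercc6 had none gained and 2 lost. Oxidative stress and NRF2 genes had 11 and 19 (36.7%), with Nfe2l2, which encodes NRF2, at none and 3, Gclc of glutathione synthesis at 4 and 2, and the start of Nqo1 with a shift of -22.5 points, at 9.63 in wounded plus UVB and 12.01 in UVB. Cell cycle genes (14 and 19, 42.4%) and interferon genes (4 and 9, 30.8%) likewise had intervals that include the background.

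The Wnt, Notch, prostaglandin and Polycomb lists had gained shares between 23.5% and 28.1%, all with intervals that include the background. The side on which the Wnt and Notch shares lay was not stable: they were 50.6% and 57.4% with lists of equal length, against 49.02% for all genes, and 41.4% and 40% among the strongest 50%, against 32.7%. The Wnt list had 23 gained and 61 lost regions (27.4%, 18.99 to 37.7), in which 5 members had more gained and 15 more lost. The Wnt-responsive DNA-binding factors accounted for many of these: Tcf7l2 had 8 lost, Tcf7l1 7 and Lef1 6, with none gained at any of the 3. Lost Tcf7l2 regions had signals from 2.99 to 10.6, and its start had 16.2 in wounded plus UVB and 18.96 in UVB, a shift of -14.01 points. At Lef1 all 6 lost regions were also in both the PRT4165 and the vehicle lists, and the strongest had a signal of 9.90. Of all lost regions PRT4165 held 47.8% and vehicle 51.4%, and of the 61 lost regions of the Wnt list vehicle held 37 (60.7%). Axin2, a feedback inhibitor of the pathway, had 4 gained and 2 lost. Notch genes had 10 and 31 (24.4%, 13.8 to 39.3), with the coactivators Maml3 at 2 and 8 and Maml2 at 2 and 5, and the ligand Jag1 at none and 3. Prostaglandin genes had 9 and 23 (28.1%, 15.6 to 45.4), and Pla2g4a, the phospholipase that frees arachidonic acid, had none gained and 6 lost, all 6 also in vehicle. The vehicle list held 17 of the 23 lost regions of these genes. Polycomb subunits and H2A deubiquitinases had 8 and 26 (23.5%, 12.4 to 40.0), with Jarid2 at 1 and 6 and Phc2 at none and 3.

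Wound-activated keratinocyte genes, a list of migration and repair genes, had 7 gained and 19 lost regions (26.9%, 13.7 to 46.1), and its interval includes the background. It stood above all genes with lists of equal length (54.8% and 49.02%) and among the strongest 50% (40% and 32.7%). Tnc, a matrix protein of healing skin, had 1 gained and 4 lost, and its start had a signal of 8.87 in wounded plus UVB and 11.4 in UVB, a shift of -23.8 points. Stat3 had 1 and 3, and the integrin gene Itgb1 none and 2. None of the 7 gained regions was in a list from 1 week after wounding, an interval of up to 35.4% that includes the 23.1% of all gained regions.

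Epidermal identity gene lists had shares between 38.2% and 44.8%, all with intervals that include the background, while 1 marker set given below did not. With lists of equal length the intervals of the basal layer (75.8%, 64.2 to 84.5), differentiation (74.1%, 61.6 to 83.7) and upper follicle lists (67.7%, 50.1 to 81.4) lay above the 49.02% of all genes. Among the strongest 50% the upper follicle (25%) and differentiation (23.1%) lists stood below all genes (32.7%). Upper follicle genes had 13 gained and 16 lost (44.8%), with Plet1, a surface protein of the junctional zone, at 3 and none. The bulge and lower follicle list had 30 and 47 (39.0%), the basal layer list 23 and 37 (38.3%), differentiation and barrier genes 24 and 37 (39.3%) and sebaceous gland genes 13 and 21 (38.2%). In the basal layer Krt5 had none gained and 3 lost, each with a signal of 3.70 or less. Casp14, a protease of cornification, had none and 4, Elovl4, which makes very long chain lipids, 1 and 7, and Plin2, a lipid droplet coat protein, none and 5.

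Among markers of other cell types, those of melanocytes alone had an interval that excludes the background of 31.9%. They had no gained and 11 lost regions (0%, interval to 25.9) among 7 of 11 members with any region. Mlana, a melanosome protein, had 4 lost regions with signals from 5.93 to 10.96, 1 of them within 1 kb of a gene end, and no shared region. Mitf, the melanocyte master regulator that is also used by other cells, had 3 lost and 12 shared, and Dct, a pigment enzyme, 2 lost and 1 shared. Fibroblast markers had none gained and 8 lost (interval to 32.4%), mast cell markers none and 3, Merkel cell markers 3 and 6 (33.3%), Langerhans and myeloid markers 2 and 4 (33.3%), endothelial markers 4 and 14 (22.2%, interval to 45.2), and T cell markers 6 and 6, and each of these intervals includes the background. With lists of equal length the fibroblast interval (0%, to 39.03) also lay below all genes, and among the strongest 50% that of melanocyte markers (0%, to 43.4) included the 32.7% of all genes. With an overlap of 50% of both regions the melanocyte share was 14.3% (4.01 to 39.9), an interval that included the 36.6% of all genes. The fibroblast interval (0%, to 32.4) lay below that share. In such a cell pool, fewer cells of a type, less open chromatin per cell and a difference in depth or list length cannot be told apart. In the keratinocyte signals to melanocytes the counts were 7 and 11 (38.9%, 20.3 to 61.4), of which Edn1 had 4 gained and 1 lost. Of all gained regions 23.1% were in a list from 1 week after wounding, and the 4 of Edn1 each were. The strongest of them, 102.0 kb from the Edn1 start at chr13:42403118-42403638, had a signal of 15.02.

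MicroRNA genes were looked up as well, since their hairpins mark the position of the locus. Of 1005 hairpins 220 had a region of either list within 1 kb, 8 with gained regions alone, 19 with lost regions alone and 193 with a shared region. A gained region (chr5:138165090-138165441, signal 5.70) overlapped the hairpin of Mir25 and lay within 1 kb of those of Mir93 and Mir106b, which form a cluster with it inside Mcm7 known to act on cell cycle inhibitors. Lost regions lay near Mir30a (signal 12.6), Mir199a-1 (9.91), Mir130b and Mir301b (6.32) and Mir125b-1 (4.40), of which Mir125b is known in mouse skin stem cells. Mature sequences of members of this cluster and of 2 lost loci follow, from RefSeq for GRCm38.p6, with the seed (bases 2 to 8) in capitals. The sequences show that miR-106b and miR-93 share the seed AAAGUGC.
mmu-miR-106b-5p (chr5:138165787-138165807, minus strand): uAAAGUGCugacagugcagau
mmu-miR-93-5p (chr5:138165574-138165596, minus strand): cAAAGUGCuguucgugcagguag
mmu-miR-25-3p (chr5:138165332-138165353, minus strand): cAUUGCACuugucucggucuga
mmu-miR-30a-5p (chr1:23272274-23272295, plus strand): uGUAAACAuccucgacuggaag
mmu-miR-125b-5p (chr9:41581940-41581961, plus strand): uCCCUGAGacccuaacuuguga

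The gained region at Mir25 was in none of the other 8 lists. The Mir30a region was otherwise in vehicle and PRT4165, and the Mir125b-1 region in those lists and at 1 week after the first wound. A region near a hairpin gives no level of the miRNA.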

How the data were processed

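ATAC-seq was made from sorted Lrig1 GL Sca1+ cells, 20 libraries in 10 groups of 2. The authors deposited 1 peak list per group, pooled over both libraries, with a score, a signal of enrichment and a −log10 p-value per peak. Per the submitters' processing notes the genome is mm10. The lists are named as conservative sets by irreproducible discovery rate, a filter on the agreement of peaks between libraries. The sources used here do not give its threshold, the aligner, the peak caller, other filters or read depth. Deeper sequencing gives more weak peaks, so list length can move gained and lost counts. List length may also depend on how well the 2 libraries of a group agree, which was not measured.

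Overlapping peaks of the autosomes, X and Y were merged, and a region took its signal and summit from its strongest peak. Shared regions joined by overlap form a locus, ranked by its highest signal, and a difference is wounded plus UVB minus UVB in percentile points. Regions went to the protein-coding gene that holds the summit or the nearest within 100 kb, from 21887 genes of GRCm38.p6 with spans and no strand. Starts came from the RefSeq promoter table for 17492 genes and from both gene ends for 4395. Python 3.11.15, numpy 2.4.6, pandas 2.3.3, scipy 1.17.1 and matplotlib 3.10.9 were used, and 4 of 4 overlap counts equalled those of bedtools 2.31.1. The code was tested on simulated data.

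Genes named are, by rule, the 8 highest and 8 lowest in gained minus lost regions (predicted genes left out), the 5 strongest gained and lost regions, the 5 largest rises and falls in rank among loci at percentile 75 or above in either list, and per list up to 3 members with the largest difference of gained and lost and the largest shift at a start. The text gives most of these, and any other gene was named after its values were seen. The groups, the 24 gene lists (520 of 524 genes found) and the 9 marker lists (93 of 94 found) were chosen with earlier results of these data known. Alternatives tried are given in the closing section.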

Additional observations from a re-analysis of the deposited data

How the results depend on the processing

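No paired analysis was possible because each group has 1 list pooled over its libraries, and for the same reason no library could be left out. Depth is unknown. Among 250 repeats for lists and genes 202 stayed close to the values given, 41 moved and 7 turned round. Repeats on autosomes alone all stayed close. With lists of equal length 20 list shares moved, and among the strongest 50% of each list 10 gene balances moved and 4 turned. For the main counts and shares 26 repeats stayed close and 22 moved. Gained, lost and shared regions numbered 3314, 6762 and 29956 among the strongest 50% of each list, and 1008, 2206 and 32264 as strongest 50% that the whole other list lacks. With lists of equal length 10443 were gained. Moved loci numbered 7634 up and 7552 down at 10 points, and 716 and 576 at 30 points. Shares near a start were 2.81% of gained and 4.39% of lost regions within 500 bp, and 9.20% and 5.53% with lists of equal length. Gained regions held 1 week after the first wound were 16.2% with an overlap of 50% of both regions and 32.5% among the strongest 50%, and lost regions held by vehicle 48.8% and 75.7%. Chosen after seeing the data, a threshold of 10 points gave 55.2% and 56.2% of loci that ranked higher as above homeostasis after the first and second wound, and 47.6% for loci that ranked lower after the first. The side of a list's gained share against all genes turned for 11 of 24 gene lists and 3 of 9 marker sets among the strongest 50% of each list, and for 6 and 1 with lists of equal length. Of those whose interval excluded the all-gene share, AP-1 (27.3%), TGF-beta and BMP (15.8%) and upper follicle and sorted lineage markers (25%) turned among the strongest 50%, as did the balance for Foxp1 (-1), Auts2 (-1), Mcc (-3) and Adgrl3 (-1). The cause was not tested.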
